A study of Mus musculus with 12 samples.

Results

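The transcriptome of mouse pancreatic tumor cells was set against that of adult acinar cells, using the 3 arrays titled tumor cells and the 3 titled adult acinar cells of the 12 arrays in the series. Tumor cells were of low passage and had been grown in standard medium. Adult acinar cells, which secrete the digestive enzymes, came fresh from a collagen digestion and went straight into RNA extraction. The remaining 6 arrays held embryonic acinar cells, isolated in the same way, and acinar-to-ductal metaplasia (ADM), acinar cells kept for 7 days in 3D collagen with TGF-alpha, which activates the EGF receptor, at 50 ng/ml. All 12 arrays entered the model, and ADM values are given as a further point of comparison. All samples carry the strain C57Bl6/J wildtype. Neither a genotype of the tumor nor its driver alleles, age or sex are given in the sources used here, and the 3 tumor samples share the number 921 in their descriptions, so they may stem from 1 tumor or line. Whether replicates came from separate animals, tumors or cultures is not stated, and p-values then cover only how far the arrays scatter. Growth in medium and fresh isolation fall together with the groups, and tumor against adult and cultured against fresh cannot be told apart. The series is about epigenetic change during acinar cell reprogramming and pancreatic carcinogenesis, and the comparison asks how far the tumor cells lie from the normal adult cell.

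Acinar cells make and store digestive enzymes as inactive zymogens, under a network of transcription factors that includes PTF1A, RBPJL, NR5A2 and BHLHA15 (also known as MIST1). Under injury or oncogenic signalling, acinar cells can lose these enzymes and take on duct-like features, which is called acinar-to-ductal metaplasia and is regarded as a route to pancreatic ductal adenocarcinoma. Pancreatic cancer cells in culture often combine ductal keratins with mesenchymal genes, proliferate and respond to the EGF receptor, MAPK and YAP pathways.

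The files gave 1 log2 signal per probe set and array, and 22180 genes were measured by their brightest probe set. Signals ran from 1.56 to 13.67. The background level was set at 3.622, under which 95% of the group means of 1392 genes for odour and pheromone receptors fell, and a gene was taken as at background in a group when all 3 arrays lay at or below it. Whether the brightest probe sets were saturated was not tested. A gene was called higher or lower in tumor cells at an adjusted p under 0.05 in limma's test and a log2 difference of at least 1 in size. Differences are tumor minus adult acinar throughout and are followed by their standard error (SE), with n = 3 arrays a group. Differences against ADM are tumor minus ADM and share the tumor arrays with those against adult cells.

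By this rule 3108 genes (14.0%) were higher and 1321 (5.96%) lower in tumor cells. The median log2 difference of all genes was -0.09, and the 3 tumor and 3 adult acinar arrays did not overlap for 43.7% of genes. Of the calls, 70.2% were higher ones, but this share was 53.6% after quantile normalization, 50.0% after cyclic loess and 50.9% after centring on 13 housekeeping genes. The last of these lowered the log2 differences by 0.287, to a median of -0.377 over all genes. That centring takes the median level of the 13 genes on each array, and the genes themselves were not level, with a median difference of 0.92, 5 called higher and none lower. Changes of 4 or more on the log2 scale were called for 150 higher and 147 lower genes. In 248 genes called lower all tumor arrays were at background, and in 124 called higher all adult acinar arrays were. For those the fold change is a lower bound and is written "at least". Where 1 or 2 arrays of a group were at background, the fitted difference is given and rests in part on values below that level. The groups were described through 41 gene lists, which hold 844 different measured genes. A list is given by its counts and its median log2 difference, to be read against the percentages and the median of all genes above. Brighter genes had a higher median. It was 0.507 over 8072 genes with a mean log2 signal above 5, acinar enzymes left out. A list of bright genes with a median near 0 thus lay below that level.

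**Figure D1:**
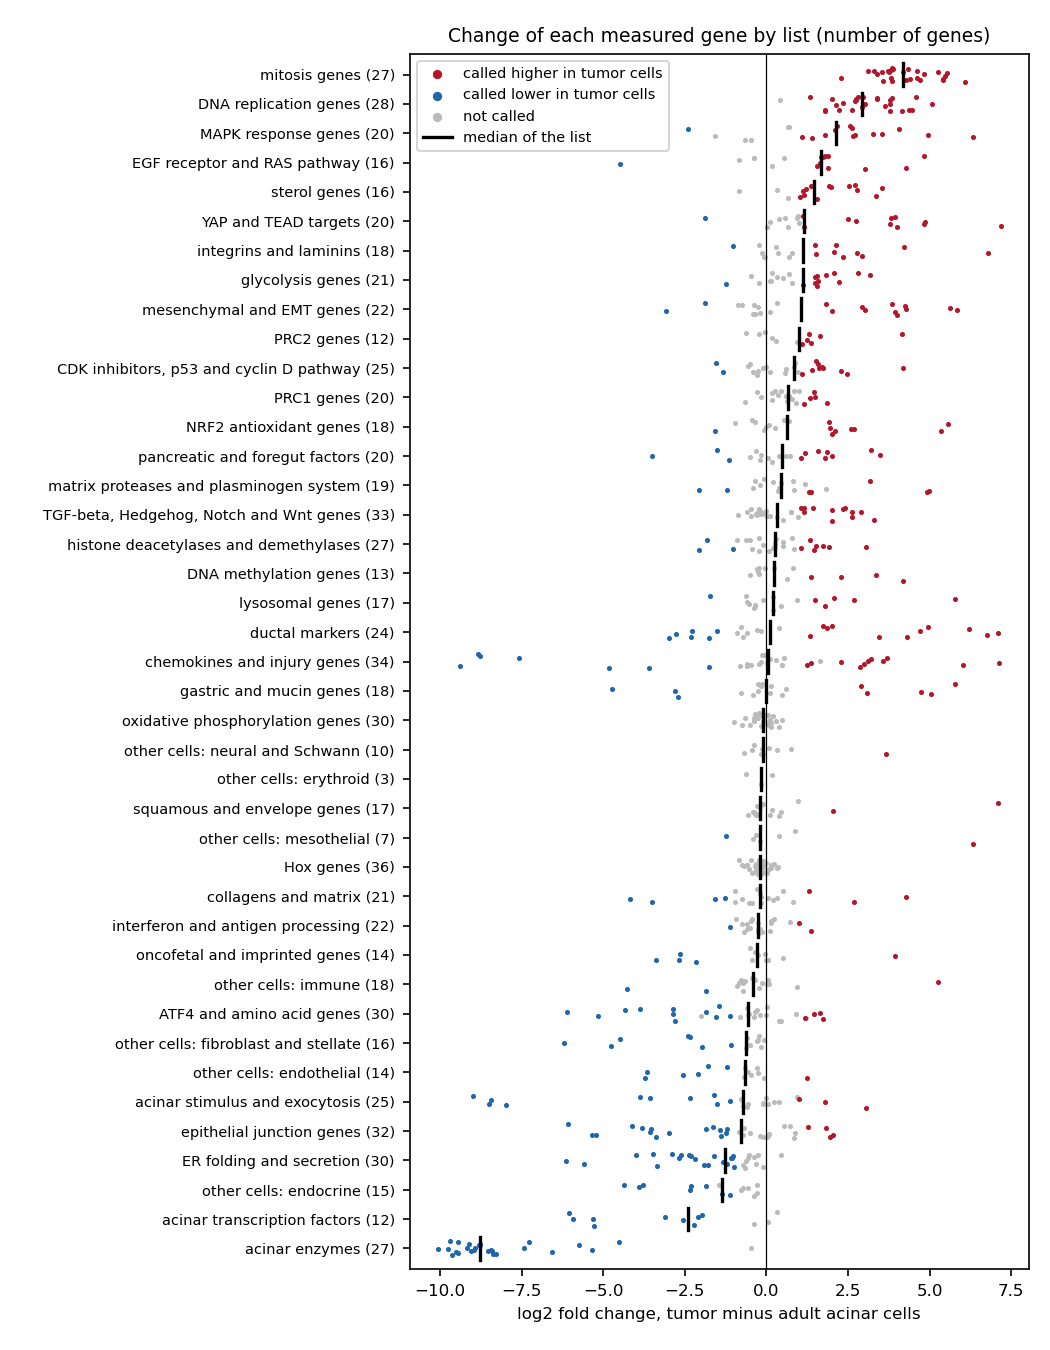
Log2 fold change (x axis, tumor minus adult acinar cells) of each measured gene in 41 lists (y axis, number of genes in brackets), with genes called higher in red, called lower in blue and not called in grey, and the median of each list as a black bar. Mitosis genes (median 4.17) and DNA replication genes (median 2.94) lie farthest to the right, and acinar enzymes (median -8.77) farthest to the left.

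Digestive enzyme transcripts were far lower in the tumor cells. Of 27 measured genes for acinar enzymes and granule proteins, 26 were lower and none higher, with a median log2 difference of -8.77, against -0.09 over all genes, or -8.61 when levels under the background were raised to it. In 26 of them every tumor array lay below every adult array. Klk1, a tissue kallikrein of the exocrine pancreas, had a log2 signal of 2.38, 2.88 and 3.19 on the tumor arrays, against 12.9, 12.9 and 12.87 on the adult acinar arrays. The reduction was at least 616-fold (adjusted p = 3.94e-08), and all tumor arrays were at background. Cpb1, which encodes carboxypeptidase B1, read 2.93, 2.75 and 2.75 on the tumor arrays, against 12.42, 12.4 and 12.49 on the adult acinar arrays, and was lower by at least 450-fold. Spink1, an inhibitor of trypsin, read 2.7, 2.84 and 2.52 on the tumor arrays, against 12.44, 12.4 and 12.43 on the adult acinar arrays, at least 446-fold lower. Rnase1, the pancreatic ribonuclease, was at least 458-fold lower in the tumor cells. In Klk1, Cpb1, Spink1 and Rnase1 alike, the adult arrays lay close together and every tumor array lay at background.

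Other enzymes kept a signal slightly over background on some or all tumor arrays. Cpa1, which encodes carboxypeptidase A1, had 4.36, 3.71 and 3.81 on the tumor arrays, against 13.15, 13.14 and 13.11 on the adult acinar arrays, a log2 difference of -9.17 ± 0.18. Cel, the bile salt-stimulated lipase, had 3.62, 3.71 and 3.18 on the tumor arrays, against 12.97, 12.95 and 12.93 on the adult acinar arrays, a fitted difference of -9.45 ± 0.18, with 1 of the 3 tumor arrays above background. Ctrb1, a chymotrypsinogen, had 5.37, 4.3 and 3.89 on the tumor arrays, against 13.36, 13.27 and 13.32 on the adult acinar arrays, a difference of -8.8 ± 0.27. For each of these 3 genes the tumor arrays lay far below the adult ones and near background, with tumor replicate 1 the highest for Cpa1 and Ctrb1. Prss1, a trypsinogen, differed by -6.58 ± 0.24, and Amy2b, a pancreatic amylase, was at least 179-fold lower. Prss3, another trypsinogen, was the enzyme that was not called, at 3.75, 3.55 and 3.07 on the tumor arrays, against 4.63, 3.06 and 4.12 on the adult acinar arrays, with both groups near background. The ADM cultures lay between the groups for Cel, with a mean of 9.31, and Klk1 (8.96), while Cpa1 (12.41) and Ctrb1 (ADM mean 13.12) were still close to the adult acinar level there. Against ADM, 24 of the 27 genes were lower in tumor cells, where 5.07% of all genes were. Amylases, trypsinogens and kallikreins are families of near-identical genes, and cross-hybridisation between their probe sets was not tested. In a bulk RNA sample, fewer acinar cells and less of a transcript per cell cannot be told apart.

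The Reg genes, which encode secreted lectins made by acinar cells and raised in pancreatitis, were lower in the same way. Reg1 had 3.95, 2.96 and 3.79 on the tumor arrays, against 12.98, 12.92 and 12.96 on the adult acinar arrays, a fitted log2 difference of -9.39 ± 0.26, with 1 of the 3 tumor arrays at background. Reg3b read 3.97, 3.55 and 3.67 on the tumor arrays, against 12.61, 12.4 and 12.46 on the adult acinar arrays, a difference of -8.76 ± 0.87. Tumor arrays lay near background and adult arrays near the top of the scale in both. Reg2 was lower by at least 330-fold, Reg3a by at least 116-fold and Reg3g by at least 17.1-fold. The SE of Reg2 was 1.4 and that of Reg3a 1.04, although their tumor and adult arrays were tight, since the SE pools the spread of all 4 groups.

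**Figure D2:**
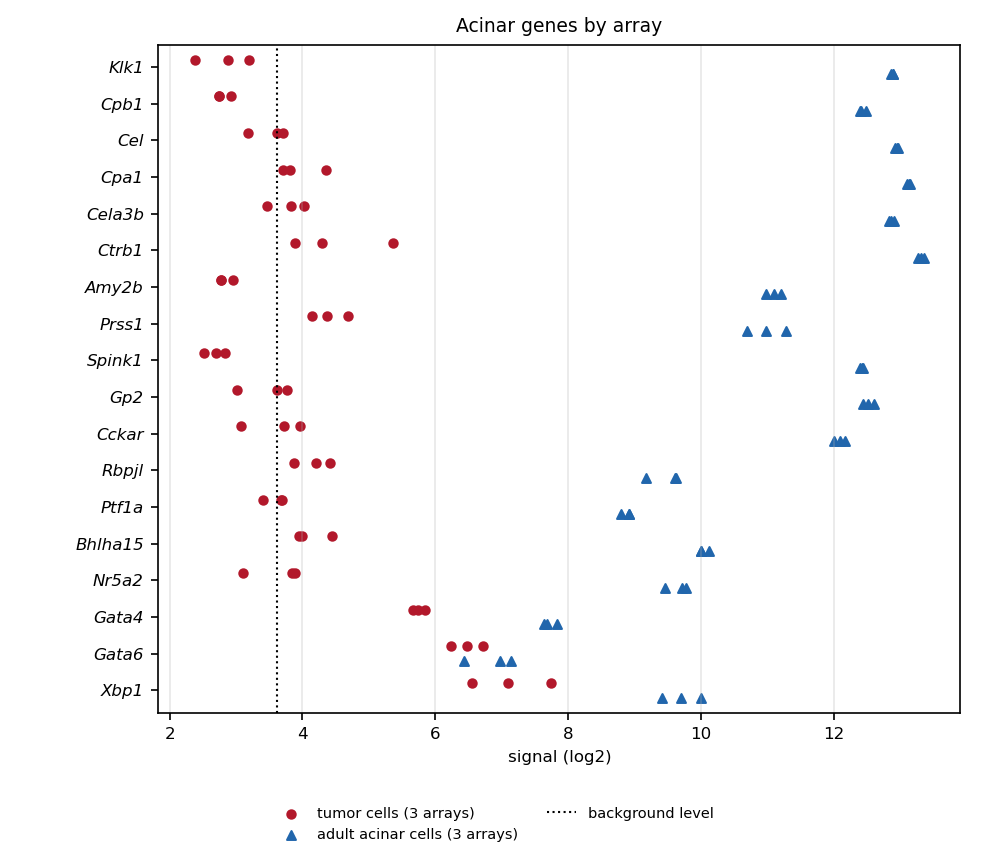
Log2 signal (x axis) of acinar genes (y axis) on the 3 tumor arrays (red circles) and the 3 adult acinar arrays (blue triangles), with the background level of 3.622 as a dotted line. From Klk1 to Nr5a2 the tumor arrays lie at or near background, between 2.38 and 5.37, while Gata6 overlaps between the groups.

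Acinar enzyme promoters are shown because their genes fell together. RefSeq gives 300 bases for each promoter, 250 before and 50 after the start, on build GRCm38.p6, and 16990 of the 22180 genes matched by symbol. In all, 20 short motifs were searched on both strands, and the 6 marked in capitals in the printed windows were picked after their shares had been seen. CACCTG, a form of the E-box that basic helix-loop-helix factors such as PTF1A bind, stood in 13 of 22 acinar enzyme promoters (59.1%) and in 19.6% of all promoters. CAAGGNCA, a site of the kind NR5A2 binds, stood in 10 of the 22 (45.5%) and in 5.86% of all. The longer form TCAAGGNCA, which contains it, stood in 1 of the 22 (4.55%), against 1.31% of all. TTTCCC, a site of the RBPJ family, stood in 8 (36.4%), against 25.7% of all promoters. Among promoters of all genes called lower, CACCTG stood in 26.4%, CAAGGNCA in 7.64%, TCAAGGNCA in 0.893% and TTTCCC in 24.7%. Of the 6 enzyme promoters that held both CACCTG and CAAGGNCA in a called gene, those of Klk1 and Cel, whose genes had the largest fitted differences, are printed in the direction of the gene. Capitals mark CACCTG and CAAGGNCA or their reverse complements. The Klk1 window is chr7:44225110-44225409 on the + strand and the Cel window chr2:28563354-28563653 on the - strand.
Klk1: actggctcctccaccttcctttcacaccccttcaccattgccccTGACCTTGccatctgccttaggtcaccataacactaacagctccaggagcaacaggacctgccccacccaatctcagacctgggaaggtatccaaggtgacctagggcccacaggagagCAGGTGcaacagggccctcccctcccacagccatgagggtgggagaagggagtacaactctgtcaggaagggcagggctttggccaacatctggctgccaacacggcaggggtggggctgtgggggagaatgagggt
Cel: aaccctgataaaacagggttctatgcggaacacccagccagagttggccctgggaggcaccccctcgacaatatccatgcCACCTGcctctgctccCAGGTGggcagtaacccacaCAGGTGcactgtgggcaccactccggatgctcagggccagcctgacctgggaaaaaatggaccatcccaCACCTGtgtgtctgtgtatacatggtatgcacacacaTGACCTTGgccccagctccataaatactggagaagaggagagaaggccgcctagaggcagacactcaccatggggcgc
The Klk1 window held 1 CACCTG, beginning 87 bases before the start, and 1 CAAGGNCA, beginning 206 bases before it. The Cel window held 4 CACCTG and 1 CAAGGNCA, the last of these 28 bases before the start. A match describes the letters of the window and shows no binding.

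Transcription factors of the acinar program were lower as well. Of 12 on the list, 9 were lower and none higher, with a median of -2.4. Ptf1a, which encodes the helix-loop-helix factor that drives the enzyme genes, had 3.68, 3.41 and 3.7 on the tumor arrays, against 8.92, 8.8 and 8.92 on the adult acinar arrays. The difference was -5.28 ± 0.36 (adjusted p = 9.88e-08), and the tumor arrays lay at the edge of background. Rbpjl, its partner in mature acinar cells, read 3.87, 4.42 and 4.2 on the tumor arrays, against 9.61, 9.62 and 9.17 on the adult acinar arrays, a difference of -5.3 ± 0.23. Nr5a2, a nuclear receptor that supports acinar identity, had 3.84, 3.11 and 3.89 on the tumor arrays, against 9.71, 9.46 and 9.78 on the adult acinar arrays, a difference of -6.04 ± 0.23. Bhlha15, which shapes the secretory apparatus, had 4.0, 4.44 and 3.95 on the tumor arrays, against 10.01, 10 and 10.13 on the adult acinar arrays, a difference of -5.92 ± 0.19. None of these overlapped between the groups. Against ADM, where Nr5a2 averaged 8.07 and Ptf1a 5.91, tumor cells differed by -4.46 ± 0.23 and -2.32 ± 0.36, both called. Bhlha15 averaged 4.16 in ADM, and tumor cells differed by -0.03 ± 0.19 there, which was not called. Gata4, a factor of pancreas development, differed by -1.97 ± 0.18, and Xbp1, the regulator of secretory capacity, by -2.57 ± 0.26. Gata6, close in function to Gata4, was not called, at 6.72, 6.24 and 6.48 in tumor cells, against 6.97, 6.43 and 7.14 in adult acinar cells. Nr0b2, a repressor of NR5A2 targets, was lower by 3.11 ± 0.35 on the log2 scale. Mecom (0.33 ± 0.24) and Creb3l2 (0.05 ± 0.29) did not pass the test.

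Many genes that fold, move and release enzymes were lower too. In the endoplasmic reticulum (ER) list, 20 of 30 genes were lower and none higher, with a median of -1.27. Ero1b, an oxidase that forms disulfide bonds and is abundant in secretory pancreas, had 5.51, 5.28 and 5.07 on the tumor arrays, against 11.53, 11.37 and 11.36 on the adult acinar arrays, a difference of -6.13 ± 0.2. Derl3, which takes part in ER-associated degradation, read 5.07, 3.03 and 4.07 on the tumor arrays, against 9.73, 9.52 and 9.66 on the adult acinar arrays, a difference of -5.58 ± 0.37. Sel1l, an adaptor of the same degradation complex, was lower by 4.01 ± 0.2 and Sdf2l1, a chaperone partner, by 3.47 ± 0.2. The chaperone genes Hsp90b1 (-0.52 ± 0.14) and Canx, which encodes calnexin (-0.11 ± 0.13), were not called. Against ADM, 1 ER gene was called lower in tumor cells and none higher.

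Among receptors and exocytosis genes, 10 of 25 were lower and 3 higher. Cckar, the cholecystokinin receptor that triggers enzyme release, had 3.72, 3.97 and 3.07 on the tumor arrays, against 12, 12.09 and 12.17 on the adult acinar arrays, a difference of -8.5 ± 0.22. Aqp12, an aquaporin of acinar cells, read 4.15, 3.78 and 3.86 on the tumor arrays, against 11.91, 11.92 and 11.89 on the adult acinar arrays, a difference of -7.98 ± 0.27. Tmed6, which carries cargo in the early secretory path, was at least 336-fold lower and Tmed11 at least 241-fold lower. The small GTPase Rab3d, which sits on zymogen granules, differed by -3.88 ± 0.25. In contrast the bicarbonate cotransporter Slc4a4 was higher, with 9.37, 7.61 and 7.86 on the tumor arrays, against 5.11, 5.71 and 4.9 on the adult acinar arrays, a difference of 3.04 ± 0.38, and so was the calcium channel gene Itpr3 (1.78 ± 0.22). Tumor replicate 1 gave the highest value for both.

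Genes of a mixed list of ATF4 and amino acid genes were mostly lower where they were called (11 lower and 4 higher of 30). Cbs, which makes cystathionine, had 3.31, 4.11 and 4.33 on the tumor arrays, against 10.21, 9.96 and 9.87 on the adult acinar arrays, a difference of -6.1 ± 0.37. Gamt, which completes creatine synthesis, read 6.87, 6.05 and 5.74 on the tumor arrays, against 10.58, 10.65 and 10.42 on the adult acinar arrays, a difference of -4.33 ± 0.29. Fgf21, a hormone secreted by acinar cells, was lower by 5.17 ± 0.53 on the log2 scale, and Chac1, which degrades glutathione, by 3.86 ± 0.34. Nupr1, a stress factor, read 9.41, 7.44 and 7.5 in tumor cells, with replicate 1 apart, against 10.97, 11.06 and 10.92 in adult cells. Among the higher ones were genes of serine, glycine and glutamine metabolism. Psat1 differed by 1.18 ± 0.23, a call lost after quantile normalization, cyclic loess and housekeeping centring, Shmt1 by 1.65 ± 0.22 and Glul by 1.72 ± 0.21. The amino acid transporter subunits Slc7a5 (-0.59 ± 0.23) and Slc3a2 (-0.57 ± 0.15) were not called, nor was Atf4 itself (-0.34 ± 0.17).

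Duct keratins were higher in the tumor cells, and other duct genes were found in both directions. Of 24 ductal markers, 11 were higher and 6 lower. Against ADM, 1 of the 24 was higher and 11 lower, with a median of -0.62, where 3.28% of all genes were higher and 5.07% lower. The median of the ductal markers, 0.11, turned to -0.18 after housekeeping centring. Krt19, a keratin of pancreatic ducts, had 10.32, 10.48 and 10.31 on the tumor arrays, against 6.91, 6.85 and 7.01 on the adult acinar arrays, a difference of 3.45 ± 0.14, or 10.9-fold. Krt7, another duct keratin, read 10.12, 10.19 and 10.34 on the tumor arrays, against 5.74, 5.96 and 6.02 on the adult acinar arrays, a difference of 4.31 ± 0.14, or 19.8-fold. The simple epithelial keratins Krt8 and Krt18, already present in acinar cells, were higher by 1.85 ± 0.15 and 1.32 ± 0.17. All 4 keratins were non-overlapping between the groups and lay close to ADM, where Krt19 averaged 10.12 and Krt7 9.65. Anxa3, an annexin, which binds membrane phospholipids, had 11.15, 11.29 and 11.08 on the tumor arrays, against 3.43, 3.63 and 5.16 on the adult acinar arrays, a difference of 7.1 ± 0.35, and Anxa1, of the same family, differed by 6.2 ± 0.25. Tspan8, a tetraspanin of gastrointestinal cancers, read 10.85, 10.59 and 10.27 on the tumor arrays, against 3.11, 4.12 and 4.21 on the adult acinar arrays, a difference of 6.76 ± 0.31. Car2, the carbonic anhydrase of duct cells, was higher by 4.94 ± 0.43.

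Lower duct and epithelial genes included Epcam, a surface adhesion molecule of most carcinomas, with 3.65, 3.84 and 3.98 on the tumor arrays, against 6.92, 6.55 and 6.98 on the adult acinar arrays, a difference of -2.99 ± 0.16. In ADM it averaged 9.09, and tumor cells differed from it by -5.27 ± 0.16. Muc1, an apical mucin, had 6.34, 8.6 and 8.57 on the tumor arrays, against 10.54, 10.67 and 10.6 on the adult acinar arrays. Sox9, a factor of duct and progenitor cells, had 8.04, 5.54 and 6.07 on the tumor arrays, against 8.37, 8.21 and 8.33 on the adult acinar arrays. Tumor replicate 1 was the lowest for Muc1 and the highest for Sox9, where it came close to the adult arrays. Both were called, at -2.77 ± 0.44 and -1.75 ± 0.44, and without that array the differences were -2.02 and -2.5. Onecut1, a duct and progenitor factor, was lower by 2.31 ± 0.17.

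Among pancreatic and foregut factors, 8 of 20 were higher and 3 lower. Pdx1, the factor that founds the pancreas and later marks islets, had 6.55, 6.56 and 6.25 on the tumor arrays, against 5.03, 5.1 and 4.48 on the adult acinar arrays, a difference of 1.58 ± 0.19, with no overlap. Against ADM, where its mean was 4.47, it differed by 1.99 ± 0.19. Gata5, which is not a usual marker of adult pancreas, read 5.71, 6.09 and 5.7 on the tumor arrays, against 4.02, 3.6 and 3.83 on the adult acinar arrays, a difference of 2.02 ± 0.17, and its ADM mean of 3.83 was close to the adult values. Klf5, a factor of proliferating gut and tumor epithelium, was higher by 3.49 ± 0.2 and Sox4 by 3.21 ± 0.18. Foxa3, an endoderm factor, was lower, with 4.28, 4.44 and 4.72 on the tumor arrays, against 8.04, 7.78 and 8.17 on the adult acinar arrays, a difference of -3.52 ± 0.27. Foxa2, its relative, was not called (0.16 ± 0.23).

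Junction genes were lower where they were called in most cases, and E-cadherin was not called. Of 32 genes, 15 were lower and 4 higher, with a median of -0.77. Prss8, a membrane-anchored serine protease, had 4.13, 3.81 and 4.42 on the tumor arrays, against 10.12, 10.19 and 10.31 on the adult acinar arrays, a difference of -6.09 ± 0.24. Rab25, a GTPase of epithelial recycling, read 3.64, 3.29 and 3.68 on the tumor arrays, against 8.91, 8.71 and 9.02 on the adult acinar arrays, a difference of -5.34 ± 0.17. Spint1, the inhibitor of the membrane protease matriptase, had 3.47, 3.71 and 3.85 on the tumor arrays, against 8.65, 9.03 and 9.05 on the adult acinar arrays, a difference of -5.23 ± 0.16. In all of these the tumor arrays lay near background. Esrp1, which directs epithelial splicing, was lower by 4.12 ± 0.17, the tight-junction gene Cldn7 by 3.81 ± 0.29 and the desmosomal gene Dsg2 by 3.57 ± 0.2. In ADM cultures Rab25 averaged 9.3, Spint1 9.19, Esrp1 8.06 and Dsg2 8.62, each above all adult arrays. Cdh1, which encodes E-cadherin, had 10.48, 9.78 and 9.92 on the tumor arrays, against 9.64, 9.5 and 9.45 on the adult acinar arrays, and the difference of 0.53 ± 0.18 was under the fold minimum. Tjp1, a scaffold of tight junctions, was higher by 1.94 ± 0.22 and F11r, a junction adhesion molecule, by 1.27 ± 0.17, a call lost after cyclic loess and housekeeping centring.

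**Figure D3:**
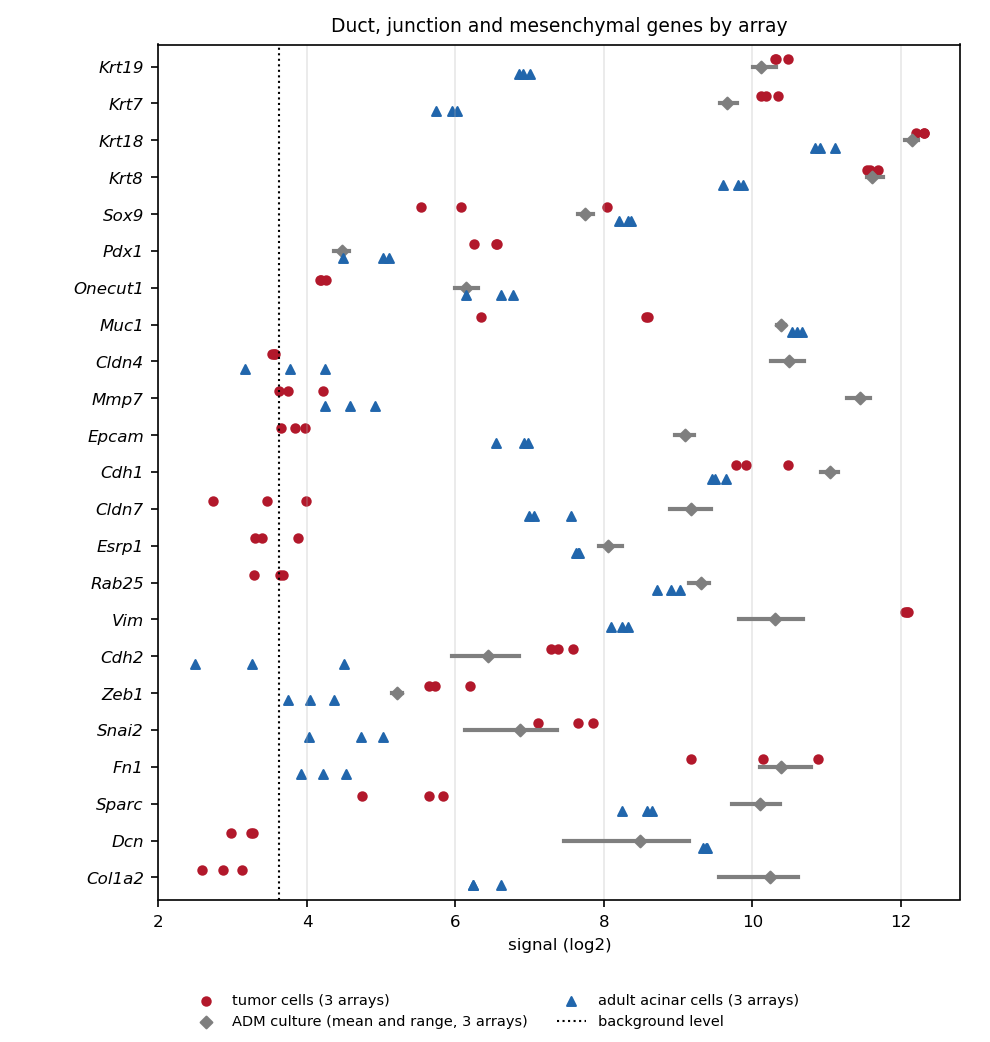
Log2 signal (x axis) of duct, junction, mesenchymal and matrix genes (y axis) on the 3 tumor arrays (red circles), in ADM culture (grey diamond at the mean, bar from the lowest to the highest of 3 arrays) and on the 3 adult acinar arrays (blue triangles), with the background level as a dotted line. Vim, Cdh2 and the keratins lie to the right in tumor cells, while Epcam, Cldn7, Esrp1, Rab25, Dcn and Col1a2 lie near background there, and Cdh1 is between 9.78 and 10.48.

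Many mesenchymal genes were higher than in adult acinar cells, with 11 of 22 called higher and 2 lower. The contrast with ADM called 2 of the 22 higher and 9 lower, with a median of -0.52, against 3.28% and 5.07% of all genes. Vim, the intermediate filament vimentin, had 12.08, 12.06 and 12.09 on the tumor arrays, against 8.09, 8.32 and 8.24 on the adult acinar arrays, a difference of 3.86 ± 0.19. Cdh2, which encodes N-cadherin, read 7.29, 7.58 and 7.38 on the tumor arrays, against 3.26, 2.49 and 4.5 on the adult acinar arrays, a difference of 4.0 ± 0.38. Fn1, the matrix protein fibronectin, had 10.89, 9.17 and 10.15 on the tumor arrays, against 4.52, 3.92 and 4.21 on the adult acinar arrays, a difference of 5.85 ± 0.35. Tumor and adult arrays were fully apart in each, and the tumor arrays of Vim were nearly equal. S100a4 was higher by 5.63 ± 0.26, the hyaluronan receptor gene Cd44 by 4.24 ± 0.24 and the receptor tyrosine kinase gene Axl by 3.95 ± 0.21. Factors that repress Cdh1 were also higher: Zeb1 had 6.2, 5.64 and 5.73 on the tumor arrays, against 4.04, 3.74 and 4.37 on the adult acinar arrays, a difference of 1.81 ± 0.21, and Snai2 differed by 2.94 ± 0.34. Snai1, a related factor, was not called (-0.42 ± 0.26). Sparc, a matrix glycoprotein of fibroblasts, was lower, with 5.83, 5.65 and 4.74 on the tumor arrays, against 8.25, 8.65 and 8.58 on the adult acinar arrays, a difference of -3.09 ± 0.26.

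Some fibroblast and collagen genes were lower. Of 21 collagen and matrix genes, 4 were lower and 3 higher. The lower ones numbered 6 after quantile normalization, 8 after cyclic loess and 7 after housekeeping centring, and the median of -0.21 was -0.74 after cyclic loess. Col1a2, a chain of type I collagen, had 3.13, 2.87 and 2.58 on the tumor arrays, against 6.24, 6.61 and 6.24 on the adult acinar arrays, at least 6.69-fold lower. Bgn, a small proteoglycan, read 3.9, 3.9 and 3.78 on the tumor arrays, against 7.87, 8.54 and 7.71 on the adult acinar arrays, a difference of -4.18 ± 0.23. Nid1, a basement membrane linker, was higher instead, with 9.96, 10.58 and 11.07 on the tumor arrays, against 5.77, 6.28 and 6.79 on the adult acinar arrays, a difference of 4.26 ± 0.28. Against ADM, 15 of the 21 were lower and 2 higher, where 5.07% of all genes were lower and 3.28% higher. Fibroblast and stellate markers moved with these genes, and 7 of 16 were lower in tumor cells than in adult acinar cells. Their summed linear signal was 212 to 264 on tumor and 1540 to 1570 on adult acinar arrays. Against ADM, 13 of these 16 markers were lower and none higher, with a median of -3.3, beside -3.04 for the collagen and matrix genes. Dcn, which encodes decorin and defines fibroblasts, read 2.98, 3.27 and 3.25 on the tumor arrays, against 9.37, 9.33 and 9.39 on the adult acinar arrays, at least 53.5-fold lower. Their part in the results on matrix genes was not tested.

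Genes of cell division rose together. All 27 measured mitosis genes were higher, with a median of 4.17, and 27 of 28 DNA replication genes were, with a median of 2.94. Cdk1, the kinase that starts mitosis, had 9.56, 10.59 and 10.7 on the tumor arrays, against 3.71, 3.83 and 5.04 on the adult acinar arrays, a difference of 6.09 ± 0.35 (adjusted p = 2.24e-08). Birc5, which encodes survivin, read 8.37, 10.28 and 10.03 on the tumor arrays, against 3.78, 3.82 and 4.51 on the adult acinar arrays, a difference of 5.52 ± 0.4. Mki67, the proliferation marker Ki-67, had 7.98, 8.64 and 9.27 on the tumor arrays, against 5.41, 4.74 and 5.06 on the adult acinar arrays, a difference of 3.56 ± 0.32. The groups were apart in all of them, and tumor replicate 1 gave the lowest tumor value in each. Top2a, a topoisomerase of dividing cells, differed by 4.62 ± 0.29, and Ndc80, of the kinetochore, was at least 28.8-fold higher. Replication was represented by Lig1, the ligase that joins Okazaki fragments (5.06 ± 0.2), by Mcm6 of the replicative helicase (4.57 ± 0.15) and by Rrm1 of ribonucleotide reductase (4.47 ± 0.3). E2f1 was the replication gene that was not called (0.43 ± 0.22). Against ADM, where 3.28% of all genes were called higher, 26 mitosis and 21 replication genes were higher in tumor cells.

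Promoters of these genes are shown for the same reason as those of the enzymes. TTTGAA, the core of the cell cycle homology region, stood in 17 of 22 mitosis promoters (77.3%) and in 15.8% of all. CCAAT, the site of NF-Y, stood in 19 of the 22 (86.4%) and in 38.5% of all. GCGGGAA, an E2F site, stood in 9 of 23 replication promoters (39.1%), in none of the 22 mitosis promoters and in 6.09% of all. Among promoters of all genes called higher, TTTGAA stood in 14.5%, CCAAT in 39.6% and GCGGGAA in 11.6%. The motifs were again counted on both strands, and TGANTCA, an AP-1 site, stood in none of the mitosis and replication promoters, against 7.39% of all. The promoters printed have the largest fitted difference among called genes with these motifs. Capitals mark TTTGAA and CCAAT or their reverse complements in the Cdk1 window, chr10:69352863-69353162 on the - strand, and the reverse complement of GCGGGAA in the Rrm1 window, chr7:102441445-102441744 on the + strand.
Cdk1: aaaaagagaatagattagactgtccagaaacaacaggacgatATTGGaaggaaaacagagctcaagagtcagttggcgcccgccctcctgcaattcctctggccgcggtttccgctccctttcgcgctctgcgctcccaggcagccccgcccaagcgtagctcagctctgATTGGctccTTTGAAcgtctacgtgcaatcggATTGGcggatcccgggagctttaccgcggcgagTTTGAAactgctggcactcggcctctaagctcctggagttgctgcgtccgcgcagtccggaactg
Rrm1: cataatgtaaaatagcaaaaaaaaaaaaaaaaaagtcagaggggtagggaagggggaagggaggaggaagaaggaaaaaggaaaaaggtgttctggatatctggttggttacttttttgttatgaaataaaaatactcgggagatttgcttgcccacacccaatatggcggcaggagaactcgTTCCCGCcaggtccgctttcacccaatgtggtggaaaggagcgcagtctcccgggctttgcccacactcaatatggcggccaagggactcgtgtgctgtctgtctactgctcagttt
The Cdk1 window held 2 TTTGAA, beginning 71 and 15 bases before the start, and 3 CCAAT. The Rrm1 window held 1 GCGGGAA, beginning 67 bases before the start.

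Of 25 genes of the CDK inhibitor, p53 and cyclin D list, 10 were higher and 2 lower. Ccnd1, which encodes cyclin D1, had 10.43, 10.89 and 11.09 on the tumor arrays, against 6.69, 6.2 and 6.95 on the adult acinar arrays, a difference of 4.19 ± 0.2. Its partner kinases Cdk4 (2.46 ± 0.14) and Cdk6 (1.72 ± 0.2) were higher as well. The inhibitor Cdkn1a, a target of p53, was higher too, with 10.48, 10.07 and 10.3 on the tumor arrays, against 8.61, 8.45 and 9.02 on the adult acinar arrays, a difference of 1.59 ± 0.22, and so was the p53 antagonist Mdm2 (1.69 ± 0.17). Cdkn2a, which encodes the p16 and p19 tumor suppressors, was not called (-0.26 ± 0.17) and lay near background in tumor cells. Myc had 8.9, 8.96 and 9.18 on the tumor arrays, against 8.18, 7.96 and 7.99 on the adult acinar arrays, and its difference of 0.97 ± 0.17 missed the fold minimum although the arrays did not overlap, and passed it without tumor replicate 1, without adult acinar replicate 1 and with array weights.

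Chromatin genes were examined because the series is about epigenetic change. Polycomb repressive complex 1 (PRC1) ubiquitylates histone H2A, and 5 of its 20 measured genes were higher and none lower. Rnf2, the main catalytic subunit (also known as RING1B), had 7.59, 7.57 and 7.67 on the tumor arrays, against 6.57, 6.92 and 6.38 on the adult acinar arrays, and its difference of 0.99 ± 0.17 (adjusted p = 0.000363) lay just under the fold minimum. Ring1, its paralog, read 5.6, 5.72 and 5.74 in tumor cells, against 6.26, 5.71 and 5.93 in adult acinar cells, and was not called (-0.28 ± 0.16). Bmi1 read 4.07, 4.42 and 5.04 in tumor cells, against 3.43, 3.6 and 3.97 in adult acinar cells, a difference of 0.84 ± 0.26 that was not called. Thus Rnf2 and Bmi1 lay higher on every tumor array, and Ring1 overlapped. The subunits called higher were Pcgf5 (1.86 ± 0.18), Pcgf6 (1.5 ± 0.25), Phc1 (1.45 ± 0.19), Yaf2 (1.32 ± 0.24) and Pcgf2 (1.16 ± 0.18). The count of higher PRC1 genes was 3 after quantile normalization and 2 after cyclic loess, with Pcgf2, Phc1 and Yaf2 under the fold minimum in the last. Rnf2 passed it with array weights, without tumor replicate 2 or without adult acinar replicate 2, and Bmi1 passed it after quantile normalization or without tumor replicate 1.

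PRC2, which methylates lysine 27 of histone H3, had 6 of 12 genes higher and none lower. Ezh2, its catalytic subunit, had 9.18, 9.56 and 9.62 on the tumor arrays, against 5.43, 5.79 and 4.72 on the adult acinar arrays, a difference of 4.14 ± 0.23, with no overlap. Eed (1.25 ± 0.21) was called, though not after quantile normalization, cyclic loess or housekeeping centring, and Suz12 (0.94 ± 0.19) was not called. Ezh1, the alternative catalytic subunit, read 5.3, 4.42 and 4.81 in tumor cells, against 4.55, 5.58 and 5.13 in adult acinar cells, and was not called. The counts of higher PRC2 genes were 3 after quantile normalization and 2 after cyclic loess, which also gave 1 lower. Of 13 DNA methylation genes, 4 were higher: Uhrf1, which brings DNMT1 to replicated DNA, differed by 4.17 ± 0.22, Dnmt1 itself by 3.37 ± 0.22, Uhrf2 by 2.27 ± 0.17 and the repair gene Mbd4 by 1.35 ± 0.17. The median of these genes was 0.24 and turned to -0.05 after housekeeping centring. Hdac1, a histone deacetylase, had 9.27, 9.53 and 9.45 on the tumor arrays, against 5.5, 7.11 and 6.52 on the adult acinar arrays, a difference of 3.04 ± 0.29, and Kdm1a, the demethylase LSD1, differed by 1.47 ± 0.15, which fell under the fold minimum after quantile normalization. Among 27 histone deacetylases and demethylases, 7 were higher and 3 lower, the lowest being Kdm1b (-2.06 ± 0.17). The median of that list, 0.27, turned to -0.07 after quantile normalization, where 3 were higher and 4 lower, and cyclic loess gave 4 higher and 5 lower. None of 36 Hox genes, classic polycomb targets, was called, and 26 of them were at background in tumor cells. At an unadjusted p under 0.05 in limma's test 7 of them (19.4%) were lower and none higher, against 20.8% of all genes lower and 24.5% higher, and 2 were called lower after housekeeping centring.

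Hmga2, an architectural chromatin protein of embryonic tissue and many carcinomas, had 9.11, 8.5 and 8.46 on the tumor arrays, against 4.55, 4.75 and 4.95 on the adult acinar arrays, a difference of 3.94 ± 0.23. Of 14 oncofetal and imprinted genes it was the 1 called higher, and 4 were lower. Grb10, an adaptor that limits growth signalling, read 3.7, 3.45 and 3.97 on the tumor arrays, against 7.25, 7.18 and 6.84 on the adult acinar arrays, a difference of -3.38 ± 0.17. The others were Peg3 (-2.68 ± 0.18), Plagl1 (at least 3.04-fold lower) and Gpc3 (at least 3.04-fold lower). Igf2bp3, an oncofetal RNA-binding protein, was near background in both groups (-0.01 ± 0.2).

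Several ligands and receptors of the EGF family were higher, while EGF was lower. Of 16 EGF receptor and RAS genes, 10 were higher and 1 lower. Relative to ADM, 1 was higher and 3 lower, with a median of 0.1, against 3.28% and 5.07% of all genes. Hbegf, a ligand of the receptor, had 10.74, 9.91 and 9.98 on the tumor arrays, against 5.65, 5.03 and 5.42 on the adult acinar arrays, a difference of 4.84 ± 0.25. Ereg, another ligand, read 7.99, 8.26 and 7.9 on the tumor arrays, against 4.12, 3.4 and 3.84 on the adult acinar arrays, a difference of 4.26 ± 0.2. Egf itself, which acinar cells make, was at least 17.1-fold lower, with 3.07, 3.32 and 3.26 on the tumor arrays, against 7.58, 7.82 and 7.76 on the adult acinar arrays. Among the receptors, Erbb2 differed by 3.02 ± 0.2 and Egfr by 1.79 ± 0.22, while Erbb3 was not called (-0.84 ± 0.32) but was called lower in 6 of 15 other settings, namely quantile normalization, cyclic loess, housekeeping centring, array weights, without tumor replicate 1 and without adult acinar replicate 3. With it the list held 2 lower genes in those settings. Egfr was nevertheless lower in tumor cells than in ADM, where it averaged 9.3 (-1.23 ± 0.22). Nras was higher by 1.89 ± 0.19, and Braf was not called (0.18 ± 0.24).

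MAPK response genes were higher in 14 of 20 cases and lower in 1. The contrast with ADM called 1 of the 20 higher and 1 lower, with a median of 0.02, against 3.28% and 5.07% of all genes. Plaur, the urokinase receptor, had 10.45, 10.4 and 10.65 on the tumor arrays, against 4.34, 4.11 and 4.03 on the adult acinar arrays, a difference of 6.34 ± 0.19. Emp1, an epithelial membrane protein, differed by 4.95 ± 0.26 and Ier3, an immediate early survival gene, by 4.05 ± 0.2. Feedback regulators of the pathway were among them, with Dusp4 at 2.71 ± 0.28, Phlda1 at 3.27 ± 0.23 and Spry2 at 3.54 ± 0.23. The immediate early factor Jun was lower, with 7.7, 6.38 and 7.16 on the tumor arrays, against 9.42, 9.55 and 9.51 on the adult acinar arrays, a difference of -2.41 ± 0.26. Fos, another such factor, had 8.18, 4.39 and 4.49 on the tumor arrays, against 7.57, 7.12 and 7.1 on the adult acinar arrays. Egr1 had 11.02, 7.45 and 7.15 on the tumor arrays, against 9.16, 9.2 and 9.27 on the adult acinar arrays. For Fos and Egr1, tumor replicate 1 lay above and the other tumor arrays below all adult arrays, and neither was called. Without replicate 1 both were called lower, at -2.82 and -1.91.

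On the list of YAP and TEAD, the factors of the Hippo pathway, and their targets, 11 of 20 genes were higher and 1 lower. The contrast with ADM gave 4 higher and 1 lower, with a median of -0.09, against 3.28% and 5.07% of all genes. Ankrd1, a nuclear ankyrin repeat protein, had 10.44, 10.75 and 11.18 on the tumor arrays, against 3.51, 3.69 and 3.63 on the adult acinar arrays, with 1 of the 3 adult arrays at background, a fitted difference of 7.18 ± 0.26, or 145-fold (adjusted p = 3.68e-10). Ccn2, a secreted matrix regulator, had 10.58, 10.05 and 10.29 on the tumor arrays, against 4.85, 6.22 and 5.39 on the adult acinar arrays, a difference of 4.82 ± 0.27. Both were fully apart between the groups. F3, tissue factor, differed by 4.87 ± 0.31 and Crim1, which binds bone morphogenetic proteins, by 4.0 ± 0.25. Of the factors themselves, Yap1 (0.03 ± 0.16) and Tead1 (0.57 ± 0.15) were not called, and Tead2 was the 1 lower gene of the list (-1.89 ± 0.17). CATTCC, the TEAD site, stood in 12 of 15 promoters of the list (80.0%) and in 13.5% of all promoters, on either strand. Among promoters of all genes called higher it stood in 12.6%. The list was made of known targets together with factors such as Tead2, and its promoters were counted whether called or not. The Ankrd1 window, chr19:36119795-36120094 on the - strand, is printed because its gene had the largest fitted difference of the list, with the reverse complement of CATTCC in capitals.
Ankrd1: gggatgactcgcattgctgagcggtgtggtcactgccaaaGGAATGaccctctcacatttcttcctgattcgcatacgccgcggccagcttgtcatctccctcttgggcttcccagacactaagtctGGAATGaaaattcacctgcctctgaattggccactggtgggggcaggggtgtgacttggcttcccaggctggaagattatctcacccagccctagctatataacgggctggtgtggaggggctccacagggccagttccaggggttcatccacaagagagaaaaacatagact
It held 2 such sites, beginning 210 and 123 bases before the start.

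Genes of the TGF-beta, Hedgehog, Notch and Wnt pathways were higher in 12 of 33 cases, and none was lower. Relative to ADM, 2 were higher and 3 lower, with a median of -0.03, against 3.28% and 5.07% of all genes. Tgfb1, a ligand, had 8.88, 7.81 and 7.98 on the tumor arrays, against 6.14, 6.23 and 5.24 on the adult acinar arrays, a difference of 2.35 ± 0.29. Its receptor gene Tgfbr2 differed by 2.62 ± 0.17, and Inhba, which encodes an activin subunit, by 3.28 ± 0.59. Notch2 (2.4 ± 0.27) and the ligand Jag1 (2.63 ± 0.22) were higher, whereas Notch1 was not called (-0.32 ± 0.21). Wnt7a, a Wnt ligand, was higher by 2.89 ± 0.27. Ihh, a Hedgehog ligand, was not called (-0.47 ± 0.17). The count of higher genes was 8 after quantile normalization and after cyclic loess, which also gave 1 lower.

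Genes of adhesion and matrix turnover gave some of the largest rises. Itga2, the integrin subunit that binds collagen, had 10.51, 10.49 and 10.7 on the tumor arrays, against 3.26, 4.49 and 3.59 on the adult acinar arrays, a difference of 6.79 ± 0.26, and Itga3, which binds laminin, differed by 4.2 ± 0.23. In all, 9 of 18 integrin and laminin genes were higher and 1 lower. Relative to ADM, none of the 18 was higher and 6 were lower, with a median of -0.16. Of all genes, 3.28% were higher than in ADM and 5.07% lower. Plat, the tissue plasminogen activator, had 9.95, 9.71 and 9.45 on the tumor arrays, against 4.73, 4.74 and 4.84 on the adult acinar arrays, a difference of 4.93 ± 0.24. Timp1, an inhibitor of metalloproteinases, read 7.97, 9.24 and 9.33 on the tumor arrays, against 3.72, 3.66 and 4.26 on the adult acinar arrays, a difference of 4.97 ± 0.31. Timp2 was higher by 3.17 ± 0.21, and Timp3 lower by 2.08 ± 0.27. Of the 19 genes of the matrix protease and plasminogen list, 5 were higher and 2 lower. The contrast with ADM called none of the 19 higher and 10 lower, with a median of -1.21. Mmp7, a metalloproteinase that averaged 11.45 in ADM, read 3.75, 4.22 and 3.62 in tumor cells, against 4.58, 4.24 and 4.92 in adult acinar cells, and was not called. Mmp10 (7.97, 4.37 and 4.1 in tumor cells) and Mmp13 (7.87, 4.56 and 3.95 in tumor cells) were high on tumor replicate 1 alone and were not called, although Mmp13 was called higher in 4 of 15 other settings, tumor replicate 2 or 3 left out among them. Lysosomal genes were higher in 5 of 17 cases and lower in 1, with Ctsh at 2.68 ± 0.22 and Npc1 at 2.07 ± 0.29. Relative to ADM, none of the 17 was higher and 7 were lower, with a median of -0.75.

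Of 18 gastric and mucin genes, 5 were higher and 3 lower. Ctse, a gastric cathepsin seen in pancreatic neoplasia, had 10.59, 8.75 and 9.49 on the tumor arrays, against 3.29, 3.64 and 4.54 on the adult acinar arrays, a difference of 5.79 ± 0.39. Tff1, a trefoil peptide of the stomach surface, read 9.68, 9.71 and 8.7 on the tumor arrays, against 4.55, 4.44 and 3.97 on the adult acinar arrays, a difference of 5.04 ± 0.33. Tff2, another trefoil peptide, was lower instead, with 10.45, 9.94 and 9.79 on the tumor arrays, against 12.83, 12.81 and 12.95 on the adult acinar arrays, a difference of -2.8 ± 0.42. Gcnt3, a mucin glycosyltransferase, was higher by 4.74 ± 0.31 and Anxa10 by 3.07 ± 0.42, while Agr2, a chaperone of mucin cells, was at least 5.08-fold lower. Ctse, Tff1, Gcnt3 and Anxa10 were each called lower against ADM, with log2 differences of -1.95, -2.02, -1.25 and -2.07. Of 17 squamous genes 2 were higher: Sprr1a, a cornified envelope protein, had 11.36, 10.69 and 10.69 on the tumor arrays, against 3.66, 3.9 and 3.88 on the adult acinar arrays, a difference of 7.1 ± 0.22, and Ivl differed by 2.05 ± 0.54, a call lost after cyclic loess. These are 11.8% of the list, against 14.0% of all genes. Sprr1b (-0.19 ± 0.2) was not called.

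Among inflammatory genes, Cxcl5, a neutrophil chemokine, had 9.31, 11.2 and 11.42 on the tumor arrays, against 3.58, 3.49 and 3.49 on the adult acinar arrays, at least 130-fold higher. Ptgs2, the inducible cyclooxygenase, read 9.07, 9.78 and 9.83 on the tumor arrays, against 3.14, 3.7 and 3.77 on the adult acinar arrays, a difference of 6.02 ± 0.22. Csf2, which encodes GM-CSF, was at least 9.33-fold higher, with 7.18, 6.26 and 7.09 on the tumor arrays, against 3.19, 2.99 and 3.28 on the adult acinar arrays. All of these were apart from the adult arrays on every tumor array. Against ADM, Cxcl5 differed by 3.7 ± 0.4, Csf2 by 3.13 ± 0.23 and Ptgs2 by -1.74 ± 0.22. Il33, an alarmin, read 5.19, 8.19 and 7.89 on the tumor arrays, against 4.01, 4.04 and 3.9 on the adult acinar arrays, a difference of 3.11 ± 0.56. Ccl2, a monocyte chemokine, had 8.01, 6.04 and 6.49 on the tumor arrays, against 4.12, 3.2 and 3.63 on the adult acinar arrays, a difference of 3.2 ± 0.47. Il33 was lowest and Ccl2 highest on tumor replicate 1. Cxcl12, a chemokine of stromal cells, was lower by 3.61 ± 0.3. The list held 34 measured genes, 11 higher and 7 lower, the lower ones including the 5 Reg genes. Against ADM, 4 of the 34 were higher and 14 lower, with a median of -0.84, where 3.28% of all genes were higher and 5.07% lower. Interferon and antigen processing genes were called in 2 higher and 1 lower cases of 22, and these counts were 0 higher and 2 lower without tumor replicate 1, 1 and 2 after quantile normalization or cyclic loess, and 1 and 3 after housekeeping centring. H2-K1, a class I molecule, was not called (-0.47 ± 0.24).

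Many glycolytic and sterol genes were higher and respiratory chain genes were not called. Slc2a1, the glucose transporter GLUT1, had 10.26, 9.51 and 9.48 on the tumor arrays, against 7.75, 7.7 and 7.58 on the adult acinar arrays, a difference of 2.07 ± 0.2. Hk2, the hexokinase of growing cells, read 8.27, 8.02 and 8.65 on the tumor arrays, against 5.19, 5.21 and 5.03 on the adult acinar arrays, a difference of 3.17 ± 0.25. Pkm, pyruvate kinase, was higher by 2.21 ± 0.15, and the monocarboxylate carrier gene Slc16a1 by 2.79 ± 0.22. In all 11 of 21 glycolysis genes were higher and 1 lower, namely Ldhb (-1.25 ± 0.18). Relative to ADM, 2 of the 21 were higher and 4 lower, with a median of -0.11, against 3.28% and 5.07% of all genes. The probe set of Ldha lay below the background level on all tumor and adult acinar arrays. Of 30 oxidative phosphorylation genes none was called. At an unadjusted p under 0.05 in limma's test 2 were higher (6.67%) and 8 lower (26.7%), against 24.5% and 20.8% of all genes. Their median was -0.11, against -0.09 over all genes and 0.507 over the 8072 brighter genes. Cox4i1 was at 0.11 ± 0.13 and Atp5b at 0.15 ± 0.12, and cyclic loess called 3 oxidative phosphorylation genes lower. Sterol genes were higher in 13 of 16 cases: Cyp51, an enzyme of cholesterol synthesis, had 8.9, 8.29 and 7.7 on the tumor arrays, against 4.83, 4.72 and 4.75 on the adult acinar arrays, a difference of 3.53 ± 0.24, and Hmgcs1 differed by 3.36 ± 0.42. Tumor replicate 1 was highest for both, and without it 10 sterol genes were higher and 1 lower. The count of higher sterol genes was 8 after quantile normalization and 7 after cyclic loess. Relative to ADM, 3 of the 16 sterol genes were higher and none lower, with a median of 0.81.

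Antioxidant genes of the NRF2 response were higher in 8 of 18 cases and lower in 1. Relative to ADM, 2 were higher and 5 lower, with a median of -0.09, against 3.28% and 5.07% of all genes. Gsta4, a glutathione transferase, had 11.2, 11.1 and 10.56 on the tumor arrays, against 5.11, 5.64 and 5.42 on the adult acinar arrays, a difference of 5.56 ± 0.23. Me1, which supplies NADPH, read 9.62, 8.95 and 8.84 on the tumor arrays, against 3.86, 3.23 and 4.24 on the adult acinar arrays, a difference of 5.36 ± 0.25. Nfe2l2, the gene of NRF2 itself, was higher by 2.6 ± 0.14, whereas Gclm (0.08 ± 0.18) was not called.

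Beyond the lists, the 12 genes with the largest rises also included Plac8, Tns4 and F2r. Plac8, a small protein raised in invasive cancers, had 10.73, 11.18 and 10.84 on the tumor arrays, against 3.44, 4.02 and 4.36 on the adult acinar arrays, a difference of 6.98 ± 0.33. Tns4, a tensin of focal adhesions, read 10.84, 10.32 and 10.45 on the tumor arrays, against 4.12, 3.56 and 3.92 on the adult acinar arrays, a difference of 6.67 ± 0.25. F2r, a thrombin receptor, differed by 6.5 ± 0.2. Against ADM, Plac8 differed by 3.81 ± 0.33 and Tns4 by 5.19 ± 0.25, both called, and F2r by 0.79 ± 0.2, not called. Msln, which encodes mesothelin, a marker of mesothelium that is raised in pancreatic carcinoma, had 10.57, 10.61 and 10.37 on the tumor arrays, against 4.22, 4.23 and 4.14 on the adult acinar arrays, a difference of 6.32 ± 0.23.

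Several genes known from immune cells were high in tumor cells and at or near background in adult acinar cells. They were chosen after their values had been seen. Tigit, an inhibitory receptor of lymphocytes, had 8.96, 8.31 and 8.61 on the tumor arrays, against 2.74, 2.7 and 3.36 on the adult acinar arrays, at least 32.1-fold higher. Mcpt8, a protease of basophils, read 9.4, 9.9 and 9.58 on the tumor arrays, against 3.53, 3.88 and 3.89 on the adult acinar arrays, a difference of 5.86 ± 0.18. Il5ra, a receptor of eosinophils, had 7.25, 9.08 and 8.66 on the tumor arrays, against 2.69, 3.33 and 3.08 on the adult acinar arrays, at least 26.1-fold higher. In the ADM cultures Tigit averaged 3.58, Mcpt8 5.24 and Il5ra 2.5. Mcpt2, a mast cell protease, was at least 25.5-fold higher and Ptpn22, a lymphoid phosphatase, at least 26.4-fold higher. Of the 18 immune cell markers, 1 was higher, Cd14 (5.25 ± 0.26), and 2 were lower, Lyz2 (-4.26 ± 0.29) and H2-Ab1 (-1.85 ± 0.43). Their summed linear signal was 904 to 1230 on tumor and 563 to 597 on adult acinar arrays, and 9 of them were at background in tumor cells. Such a sum follows the brightest genes and was not computed without Cd14. The median log2 difference of the 18 markers was -0.41. At an unadjusted p under 0.05 in limma's test 2 were higher and 7 lower. The lower immune markers numbered 4 after cyclic loess or without adult acinar replicate 3, and 6 after housekeeping centring.

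Markers of other cells in the pancreas were present on the adult arrays, and part of them were lower in tumor cells. Of 15 endocrine markers, 8 were lower, and their summed linear signal was 230 to 343 on tumor and 2090 to 3010 on adult acinar arrays. Gcg, the glucagon gene, had 4.88, 6.76 and 6.54 on the tumor arrays, against 10.33, 10.63 and 10.27 on the adult acinar arrays. Sst, the somatostatin gene, had 3.9, 5.09 and 4.56 on the tumor arrays, against 8.44, 8.52 and 7.95 on the adult acinar arrays. Of 14 endothelial markers 6 were lower and 1 higher, with Cdh5, the cadherin of endothelium, at 3.79, 3.84 and 3.93 on the tumor arrays, against 7.71, 7.2 and 7.64 on the adult acinar arrays. On the adult arrays 13 of the endocrine, 13 of the endothelial and 13 of the fibroblast markers were above background on all 3 arrays. The 10 neural markers held 1 higher gene, Ncam1 (3.67 ± 0.39), and of the 3 erythroid markers none was called and none passed an unadjusted p under 0.05 in limma's test. Of 7 mesothelial markers Msln was higher and Upk3b lower (-1.25 ± 0.25). The summed linear signal of the endothelial markers was 304 to 371 on tumor arrays, against 679 to 754 on adult acinar arrays. That of the mesothelial markers was 1390 to 1660 on tumor arrays, against 103 to 126 on adult acinar arrays, but without Msln it was 71.2 to 142 on tumor arrays, against 85.2 to 107 on adult acinar arrays. That of the neural markers was 223 to 515 on tumor arrays, against 121 to 129 on adult acinar arrays, and that of the erythroid markers 32.0 to 39.5 on tumor arrays, against 41.9 to 46.4 on adult acinar arrays. For the acinar enzymes it was 405 to 475 on tumor arrays, against 149000 to 151000 on adult acinar arrays. For the ductal markers it was 20400 to 20700 on tumor arrays, against 5900 to 6210 on adult acinar arrays. A linear sum follows the brightest genes, and the median log2 difference of the ductal markers was 0.11, with 6 of 24 lower. The part of these other cells in the results was not tested.

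The tumor arrays were not alike. Across all genes replicate 1 correlated with the other tumor arrays at 0.968 and 0.969, and these with each other at 0.987. Replicate 1 lay over 1 log2 unit above both other tumor arrays in 415 genes and below both in 352, against 75 and 14 for replicate 2 and 33 and 28 for replicate 3. The widest range was that of Clca3b, a chloride channel regulator, at 2.99, 9.8 and 10.32 in tumor cells, whose call as higher was lost in 6 of 15 other settings, tumor replicate 2 or 3 left out among them, followed by Ppbp, a chemokine, at 4.44, 9.58 and 10.85. Cd53, a leukocyte tetraspanin, was high on replicate 1 instead, at 10.31, 4.73 and 5.04, and so was Atf3, a stress factor, at 9.33, 4.92 and 5.17. The median rise of mitosis genes over the adult mean was 3.29, 4.37 and 4.78 on tumor replicates 1, 2 and 3, that of sterol genes 2.17, 1.44 and 0.98, and that of MAPK response genes 2.68, 1.64 and 2.06. Lcn2, a protein of injured epithelium, read 3.91, 7.22 and 8.35 on the tumor arrays, against 4.91, 4.79 and 4.82 on the adult acinar arrays, and was not called with all arrays, but was called higher with array weights and without replicate 1 (2.94). Without replicate 1 the counts over all genes were 3208 higher and 1416 lower, and 2914 of the higher and 1252 of the lower calls were shared with those from all arrays.

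**Figure D4:**
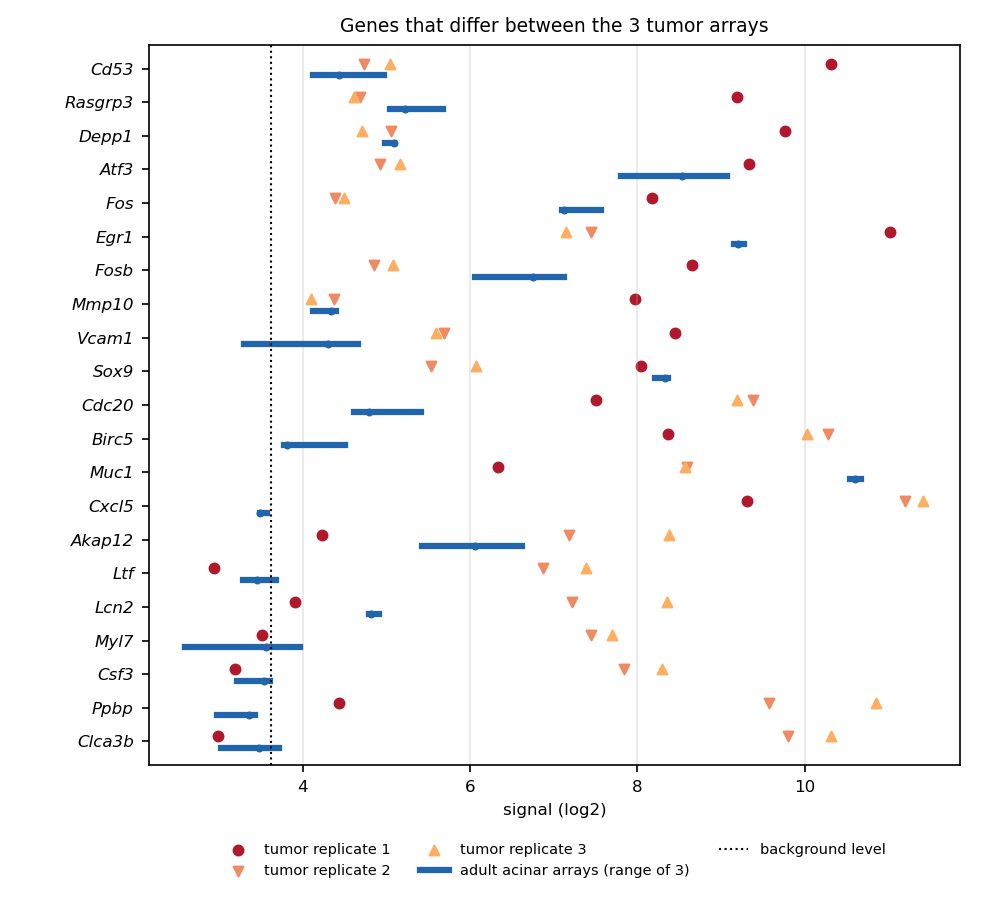
Log2 signal (x axis) of genes (y axis), chosen for their spread, on tumor replicates 1 (dark red circles), 2 (orange downward triangles) and 3 (yellow upward triangles), with the range of the 3 adult acinar arrays as a blue bar, their median as a blue dot and the background level as a dotted line. From Cd53 to Sox9 replicate 1 is the highest tumor array, and from Cdc20 to Clca3b it is the lowest.

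The sex-linked genes, the neighbours of Cdkn2a and the chromosomes that follow were chosen after their values had been seen and are descriptions. Sex-linked transcripts differed between the groups. Xist, the RNA of the inactive X chromosome, had 4.28, 3.04 and 4.22 on the tumor arrays, against 10.33, 10.25 and 10.34 on the adult acinar arrays, a log2 difference of -6.46. Eif2s3y, on the Y chromosome, read 7.07, 7.22 and 6.72 on the tumor arrays, against 3.94, 4.37 and 3.47 on the adult acinar arrays. Kdm5d, also on Y, read 6.09, 6.09 and 5.87 on the tumor arrays, against 2.95, 2.97 and 2.92 on the adult acinar arrays. The tumor arrays were thus low for Xist and high for the Y-linked genes, and the adult arrays the opposite. ADM cultures read as the adult cells did, with a mean of 9.92 for Xist and 2.8 for Kdm5d. The sex of the animals is not given in the labels used here, and sex and group cannot be told apart.

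On chromosome 4, Mtap, which encodes a phosphorylase that salvages methionine and lies beside Cdkn2a, had 3.66, 2.96 and 3.14 on the tumor arrays, against 6.53, 5.85 and 6.36 on the adult acinar arrays, a log2 difference of -2.99 ± 0.22. Against ADM, where it averaged 7.74, the difference was -4.49 ± 0.22. All tumor arrays lay at or near background and all adult arrays far above it. Its neighbours Cdkn2a and Cdkn2b, which encode inhibitors of CDK4 and CDK6, were low in adult cells too and were not called, with Cdkn2b at 4.23, 4.3 and 4.29 on the tumor arrays, against 4.72, 4.88 and 4.86 on the adult acinar arrays. Against ADM Cdkn2b differed by -2.49 ± 0.19, a called reduction, and Cdkn2a by -0.97 ± 0.17, not called. Wincr1, a long RNA near Mtap, was low in both groups and differed from ADM by -3.17. Ifna4, an interferon gene further along, was called lower, with a difference of -1.60 on the log2 scale. Klhl9 and Tusc1, which lie outside these genes on either side, were not called, nor were Gm13271, Ifna1, Caap1 and Plaa, while Ift74, beyond Plaa, was called higher (1.2 ± 0.15) but not in 3 of 15 other settings. Klhl9 read 7.79, 8.19 and 7.67 on the tumor arrays, against 7.67, 6.76 and 7.46 on the adult acinar arrays. Other neighbours with a mean of 4.5 or less over the adult acinar and ADM arrays were not listed. DNA was not measured.

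Whole chromosomes were compared over 8072 genes with a mean log2 signal above 5, acinar enzymes left out, as the median of the genes on a chromosome minus that of all 8072. Against ADM, tumor cells had a median of -0.273 ± 0.020 (SD, n = 3 tumor arrays) on chromosome 1, of -0.232 ± 0.022 on chromosome 4 and of 0.240 ± 0.071 on chromosome 6. The other 17 chromosomes lay between -0.041 and 0.063. Against adult acinar cells, the medians were -0.224 on chromosome 1, -0.282 on chromosome 4 and 0.225 on chromosome 6, with the others from -0.096 to 0.233, so chromosome 6 was not apart there. Within windows of 40 neighbouring genes, all 11 windows of chromosome 1 and all 11 of chromosome 4 lay below 0 against ADM, and all 9 of chromosome 6 above it. Over 9 settings of window size and gene filter, the share was 95.5 to 100% for chromosome 1, 88.9 to 100% for chromosome 4 and 85.0 to 100% for chromosome 6. The chromosomes, filters and windows were chosen after the values had been seen, and no cause was tested.

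**Figure D5:**
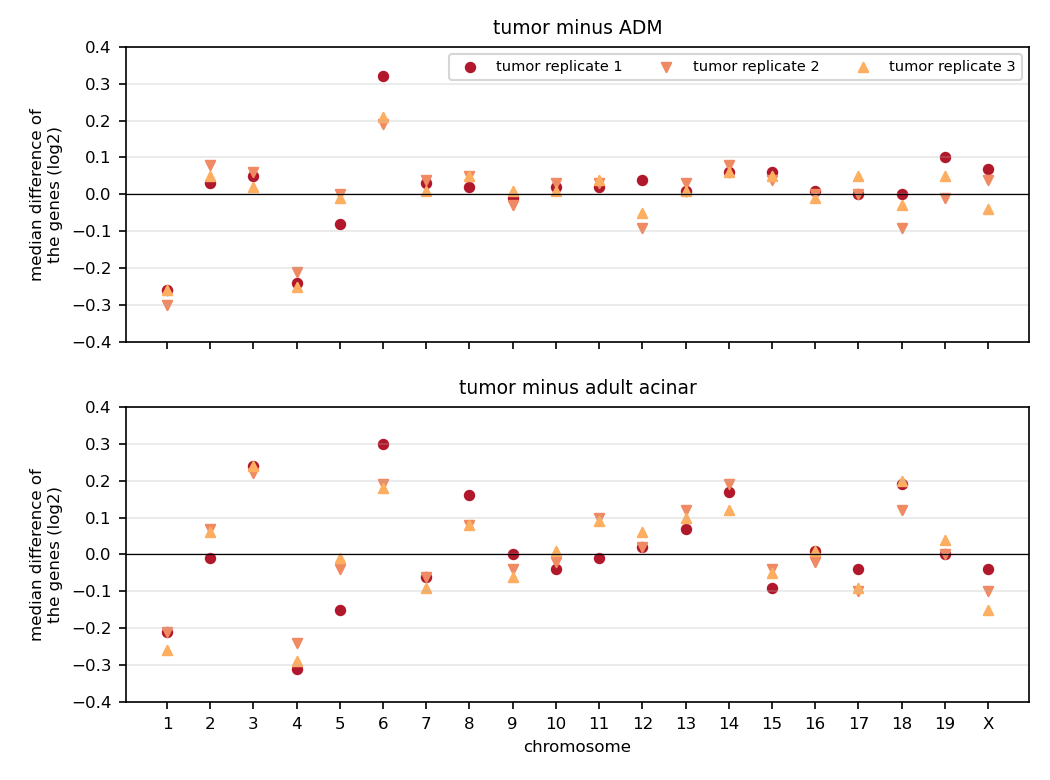
Median log2 difference of the genes of each chromosome (y axis, minus the median of all genes) by chromosome (x axis), for tumor minus ADM in the upper panel and tumor minus adult acinar cells in the lower, with 1 symbol for each of the 3 tumor arrays. In the upper panel chromosomes 1 and 4 lie lowest and chromosome 6 highest.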

How the data were processed

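Total RNA was taken with a column kit, biotin-labelled and hybridised to Affymetrix arrays, per the labels' protocols. The deposited values are log2 signals per probe set, processed by the authors. Software and normalization are not given in the sources used here, and the log base was inferred from the range of 1.56 to 13.67. Of 41345 probe sets, 23521 carried 1 gene symbol, and the brightest per gene over all 12 arrays gave 22180 genes. Group means of all 12 arrays were fitted with limma 3.58.1 in R 4.3.3, with residual df of 8 and prior df of 5.02, two-sided, and Benjamini-Hochberg adjustment over all genes. Deviations of same-numbered tumor and adult acinar arrays from their group means were uncorrelated (r of -0.026, -0.032 and 0.012). That cannot show whether equal numbers mark a shared animal or day, and the main fit held no replicate block. Genes for the text were drawn from 406 picked by a naming rule, not all of which are named. The rule took the 50 measured of 57 fixed genes and the 12 highest and 12 lowest called without overlap. It added up to 6 called genes per direction and 3 not called in each list, and the 10 widest on the tumor arrays. Others are said to be chosen after their values were seen. The members and lists were chosen with earlier results of these data known. The test was checked on simulated data with independent noise, few changed genes and no shift between arrays. That check does not cover the choice of normalization or a tumor array that stands apart. Alternatives were normalization, centring, filters, array weights, probe averaging, the replicate block and leaving out arrays. The number of arrays limits the precision.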

Additional observations from a re-analysis of the deposited data

Results flagged for a closer look

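Probe sets with no or several gene symbols lie outside the gene comparisons. Of 17824 such probe sets, 718 (4.03%) were called higher and 557 (3.12%) lower in tumor cells than in adult acinar cells. They drew attention because they were not used in the report. Their genes are not named here.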

How the results depend on the processing

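Over all genes, 3108 were called higher and 1321 lower. Cyclic loess gave 1960 higher and housekeeping centring 2198 lower. With no fold minimum 4891 were higher and 3363 lower, and with a log2 minimum of 2 there were 1051 and 505. Leaving out each tumor or adult replicate in turn gave 3007 to 3212 higher and 1289 to 1416 lower. With the replicate number as a block in the fit, 3109 were higher and 1322 lower. Of the 406 genes picked by the naming rule, 48 were higher and 110 lower against ADM, beside 3.28% and 5.07% of all genes. These counts were 48 and 113 under the replicate block, and 46 to 48 and 105 to 132 with a tumor replicate left out. Of 192 genes named in the text and called, 182 stayed called under all 15 settings. The 10 that lost the call at least once were Clca3b, Eed, F11r, Ift74, Ivl, Kdm1a, Pcgf2, Phc1, Psat1 and Yaf2. Of 49 genes named in the text and not called, 13 were called at least once, in the same direction, and none reversed in any setting. The replicate block changed none of these calls. A result counted as reversed where the sign changed and the gene was called in either setting. Small counts of list genes moved as well. Mesenchymal genes held 4 lower ones after cyclic loess or housekeeping centring, MAPK response genes 3 lower without tumor replicate 1, and NRF2 response genes 0 to 2 lower. The 1 endothelial marker called higher was lost after quantile normalization, cyclic loess or housekeeping centring, and the 1 integrin or laminin gene called lower without tumor replicate 3 or adult acinar replicate 1. Signal near background limits dim genes, and the brightest may be saturated, which was not tested. Whether the 3 arrays of a group are biological or technical repeats is not stated. Window sizes and filters for the chromosomes were added after seeing the data.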
